A study of Mus musculus with 68 samples.

Results

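The comparison described here set papillomas of agouti mice that grew many skin tumors against papillomas of agouti mice that grew few. Of the 68 arrays of the series, each hybridized with 1 papilloma, 16 came from these 9 of 37 mice, chosen by an agouti coat label and by more than 7 (susceptible) or fewer than 2 papillomas (resistant) after 20 weeks of treatment. The mice were FVBBX mice, from hybrids of SPRET/Ei and FVB/N backcrossed to FVB/N, so each carried its own mixture of a wild-derived and a laboratory genome and no mouse repeated another. All 9 were treated alike from an age of 8 to 12 weeks, with 1 dose of the carcinogen DMBA (25 µg in 200 µl acetone) and then with the tumor promoter TPA for 20 weeks. Susceptible mice 6 and 12 were male and mice 29 and 36 female, and they carried 12, 16, 10 and 35 papillomas at 20 weeks. Resistant mice 7 and 34 were male and mice 32, 35 and 37 female, and they carried 1, 1, 0, 0 and 1. The labelled origin was F1BSF3 for mouse 12, F1BSF2 for mouse 37 and F1BSF4 for the others. Mice 35 and 36 gave 1 array each and the others 2. Papillomas of 1 mouse share its genome, so each mouse entered once, by the mean log2 value of its papillomas, and n is the number of mice. The number of arrays limits the precision, and p-values measure the spread between these mice.

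DMBA mutates Hras in epidermal cells, and repeated TPA lets the mutant cells grow out as papillomas, benign tumors of keratinocytes. In normal epidermis basal cells that hold Krt5 and Krt14 leave the basement membrane, switch to Krt1 and Krt10, and end as dead squames inside a cornified envelope built from loricrin, involucrin and the late cornified envelope (Lce) and Sprr proteins. As skin tumors progress they commonly lose the suprabasal keratins and gain keratins of internal epithelia such as Krt8, Krt18 and Krt19. FVB/N mice are albino through the pigment gene Tyr on chromosome 7, so an agouti coat in this cross marks a SPRET/Ei allele there.

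The epidermal label held in all 9 mice. The basal keratin Krt5 lay between 12.78 and 13.98 and Krt14 between 13.98 and 14.64 on the log2 scale of the deposited RMA values, whose array medians were 5.18 to 5.29. Krt1 ranged from 8.26 to 14.36 and was lowest in resistant mouse 32. The 2 classes also differed in ways other than tumor number. The start cohort was 2, 3, 1 and 2 for susceptible mice 6, 12, 29 and 36. For resistant mice 7, 32, 34, 35 and 37 it was 2, 2, 7, 4 and 5. Only cohort 2 held both classes, so in the other mice cohort and class cannot be told apart. Mice 32 and 35 still had 0 papillomas at 24 weeks. The first tumor of mouse 32 was recorded at 28 weeks, after TPA had ended, and for mouse 35 no time was given. Resistant mice 34 and 37 had theirs at 18 and 20 weeks, but resistant mouse 7 at 8 weeks. The first tumors of the susceptible mice were recorded at 8 to 12 weeks. Outside mouse 7, time of appearance and class thus cannot be told apart in the resistant mice. A sign of RNA quality, how much brighter the 3' than the 5' probes of Actb were on the log2 scale, was -0.24 and 0.59 in the papillomas of mouse 32 and -0.27 and 1.71 in those of mouse 37, against 0.59 to 1.08 in the other 12 arrays. Transcripts linked to the X or Y chromosome went against the sex label in 1 array each of mice 12 and 35. Resistant mice 32, 34 and 37 had levels of white mice for a pair of chromosome 7 genes that follow coat, Rab6a and Neu3, so their place among agouti mice is uncertain. Susceptible mouse 36 was on the white side for Neu3. Of the 8 chromosome 7 probesets of smallest p by coat, susceptible mice 6 and 36 were nearer to white mice in 6 and 5. The doubt is thus not confined to the resistant mice.

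The genes that the comparison turned on include an envelope gene, a suprabasal keratin and a cytokine that were higher in susceptible mice and a granzyme that was higher in resistant mice. Their promoters are shown for context, 250 bases before to 50 after the annotated start, from RefSeq on GRCm38.p6, written 5' to 3' on the gene's strand. Capitals mark the letters TATAAA on either strand, the TATA motif. No entry in the RefSeq promoter table was found for Krt19 or Lce1f.
Lce1m (chr3:93019012-93019311, minus strand): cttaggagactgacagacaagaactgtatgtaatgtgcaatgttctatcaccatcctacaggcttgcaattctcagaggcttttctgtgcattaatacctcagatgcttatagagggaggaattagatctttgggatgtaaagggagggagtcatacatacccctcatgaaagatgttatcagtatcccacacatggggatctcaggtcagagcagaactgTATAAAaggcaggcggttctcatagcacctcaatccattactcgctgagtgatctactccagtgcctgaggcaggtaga
Krt10 (chr11:99389315-99389614, minus strand): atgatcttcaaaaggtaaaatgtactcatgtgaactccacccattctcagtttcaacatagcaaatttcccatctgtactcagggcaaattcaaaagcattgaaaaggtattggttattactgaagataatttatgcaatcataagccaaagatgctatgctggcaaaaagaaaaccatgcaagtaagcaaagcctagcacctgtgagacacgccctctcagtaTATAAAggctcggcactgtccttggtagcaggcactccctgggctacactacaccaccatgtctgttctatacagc
Il18 (chr9:50554450-50554749, plus strand): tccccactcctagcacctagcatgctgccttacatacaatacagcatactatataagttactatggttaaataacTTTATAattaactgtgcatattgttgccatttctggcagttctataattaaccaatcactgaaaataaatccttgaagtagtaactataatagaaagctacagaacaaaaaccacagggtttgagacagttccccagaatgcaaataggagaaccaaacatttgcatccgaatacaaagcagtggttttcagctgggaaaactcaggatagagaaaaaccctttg
Gzme (chr14:56120576-56120875, minus strand): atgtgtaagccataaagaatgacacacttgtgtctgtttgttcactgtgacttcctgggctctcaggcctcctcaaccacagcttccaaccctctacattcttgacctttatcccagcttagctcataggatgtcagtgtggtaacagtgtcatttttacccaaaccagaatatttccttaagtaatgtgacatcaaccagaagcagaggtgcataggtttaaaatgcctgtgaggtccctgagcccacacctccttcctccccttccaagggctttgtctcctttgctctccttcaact
Counted from the annotated start, the motif began at -29 in Lce1m, -26 in Krt10 and -175 in Il18, and 13.6% of all 32851 promoters in the table held it. TGANTCA, the TPA response element that AP-1 binds (a palindrome, read on both strands), was in none of these 4 windows and in 7.81% of all promoters.

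No probeset separated the classes beyond the spread between mice once all tests were counted. Of 21561 probesets tested (12596 genes), 0 passed an adjusted p of 0.05 (0%, limma with Benjamini-Hochberg adjustment over mouse means), the smallest adjusted p was 1.00, and a SAM-type statistic also called 0. At an unadjusted p under 0.05 there were 878 probesets (4.07%), 491 higher in susceptible mice (2.28%) and 387 higher in resistant mice (1.79%), and 150 lay under 0.01 (0.696%). Without susceptible mouse 29 the 878 became 1665. The p-values showed no excess of small values, with 878 to 1183 probesets in each of 20 equal bins, and an even spread would put 1078 in each. The values of the 4 and 5 mice did not overlap for 241 probesets (1.12%), 145 higher in susceptible mice (0.673%) and 96 higher in resistant mice (0.445%). Such a separation has a two-sided exact permutation p of 0.0159 for each probeset, so 1.12% was no excess. The genes named below are the extremes of this comparison, so their differences are a description of these 9 mice. Where genes were picked for a small p or for no overlap, the lack of overlap and its exact p add no support.

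**Figure D1:**
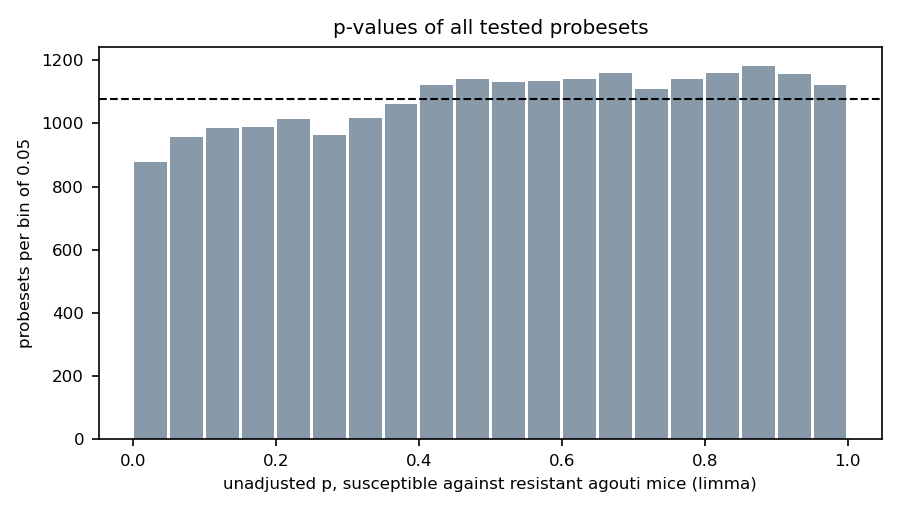
Unadjusted limma p-values of the 21561 tested probesets for susceptible against resistant agouti mice, counted in bins of 0.05; the dashed line marks the 1078 per bin of an even spread. The first bin holds 878 probesets and is the lowest.

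Of 14 genes named as higher in susceptible mice, Lce1m had the smallest limma p. Lce1m, a late cornified envelope gene, measured 8.72, 8.34, 8.74 and 8.62 in susceptible mice 6, 12, 29 and 36 and 6.75, 5.67, 6.24, 7.29 and 7.34 in resistant mice 7, 32, 34, 35 and 37. All susceptible mice lay above all resistant mice, by 1.95 ± 0.33 on the log2 scale (difference ± SE, 3.85-fold; two-sided exact permutation p = 0.0159, the smallest that the splits of 9 mice allow, n = 4 and 5). Serpinb7, an epidermal serine protease inhibitor, measured 8.60, 8.33, 7.55 and 8.03 in the susceptible mice and 6.50, 5.88, 6.18, 6.43 and 7.45 in the resistant mice, a difference of 1.64 ± 0.32. The groups lay apart, with resistant mouse 37 just below susceptible mouse 29. Krt10, the suprabasal keratin, measured 14.09, 14.40, 13.50 and 13.43 against 13.29, 10.45, 11.83, 12.27 and 12.76, a difference of 1.74 ± 0.50. Resistant mouse 7 lay just below susceptible mouse 36, and mouse 32 was the lowest of all.

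The other 11 genes named in this direction had no overlap either and the same exact p, which the way they were picked required or favored. Rnase2b, of the eosinophil-associated ribonuclease family, had the largest difference, 2.84 ± 0.82, with 10.09, 11.48, 9.86 and 10.45 in susceptible and 9.56, 5.27, 6.75, 9.31 and 7.24 in resistant mice. Resistant mice 7 and 35 lay close under the susceptible mice, and mice 32, 34 and 37 far below. The aldehyde oxidase gene Aox4 differed by 2.18 ± 0.63, another late envelope gene, Lce1f, by 1.89 ± 0.41 (a second probeset overlapped, at 1.70 ± 0.77), and Serpina12, the protease inhibitor vaspin, by 1.82 ± 0.34. 2310050C09Rik differed by 1.84 ± 0.52, Elmod1 by 1.65 ± 0.34, H60c, a skin ligand of the receptor NKG2D, by 1.34 ± 0.25, and 1110064A23Rik by 1.04 ± 0.20. The smallest differences were also the tightest. Pde12, a phosphodiesterase of mitochondria, differed by 0.69 ± 0.13, with SDs of 0.12 and 0.17 within the groups, and 2 of its 3 probesets lay apart. Agpat5, an acyltransferase of phospholipid synthesis, differed by 0.68 ± 0.12, with SDs of 0.073 and 0.13, but a second tested probeset of the gene differed by only 0.14 ± 0.22.

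Gzme and Krt19 had the widest differences of the opposite direction among the named genes. Granzyme E, a serine protease of activated cytotoxic lymphocytes, measured 6.34, 6.44, 9.00, 8.86 and 7.37 in resistant mice 7, 32, 34, 35 and 37 and 5.18, 4.99, 4.47 and 3.76 in susceptible mice 6, 12, 29 and 36. Every resistant mouse lay above every susceptible mouse, and the difference was -3.002 ± 0.60 (8.01-fold, exact permutation p = 0.0159). The susceptible values lay at or below the array medians. The probes of this set may also bind the near-identical granzymes, and a second probeset that the array annotation assigns to both Gzme and Gzmd differed by -4.50 ± 0.80. Krt19, a keratin of simple epithelia, measured 8.26, 8.77, 5.12, 9.39 and 6.82 in the resistant and 4.93, 4.48, 5.03 and 4.41 in the susceptible mice, a difference of -2.96 ± 0.75. Resistant mouse 34 was at the level of the susceptible mice, just above mouse 29, and the other 4 resistant mice were far higher.

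Dusp4, a phosphatase that ERK signaling induces and that inactivates ERK, measured 7.44, 8.16, 7.25, 7.93 and 7.41 in resistant and 6.44, 6.20, 7.04 and 6.27 in susceptible mice. The groups did not overlap, mouse 29 was the highest susceptible mouse, and the difference was -1.15 ± 0.24. Another 9 genes lay apart in this direction. Cda, a cytidine deaminase, differed by -1.30 ± 0.32, Cuedc1 by -0.96 ± 0.19, the semaphorin and VEGF co-receptor Nrp2 by -0.89 ± 0.23, the cGMP-dependent kinase Prkg2 by -0.83 ± 0.24 and Pitpnc1, a phosphatidylinositol transfer protein, by -0.76 ± 0.17. The ephrin receptor Epha7 differed by -0.73 ± 0.15, the homeobox genes Zfhx3 and Cux1 by -0.73 ± 0.19 and -0.70 ± 0.22, and Zzef1 by -0.66 ± 0.19. Epha7 levels lay near the array median in all 9 mice, and a second tested Epha7 probeset differed by -0.11 ± 0.16. A second tested Cuedc1 probeset overlapped, at -0.31 ± 0.14, and so did some of the other tested probesets of Cux1 and Pitpnc1, the smallest differences being -0.16 ± 0.18 and -0.078 ± 0.18. The other tested Prkg2 probesets overlapped as well, at -0.54 ± 0.41 and -0.67 ± 0.36, as did those of Nrp2, Zfhx3 and Zzef1. Ltbp2, of the latent TGF-beta binding proteins, and the kinesin Kif13a had small p-values too, with differences of -0.89 ± 0.22 and -0.74 ± 0.18, but 1 susceptible mouse overlapped the resistant mice in each.

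**Figure D2:**
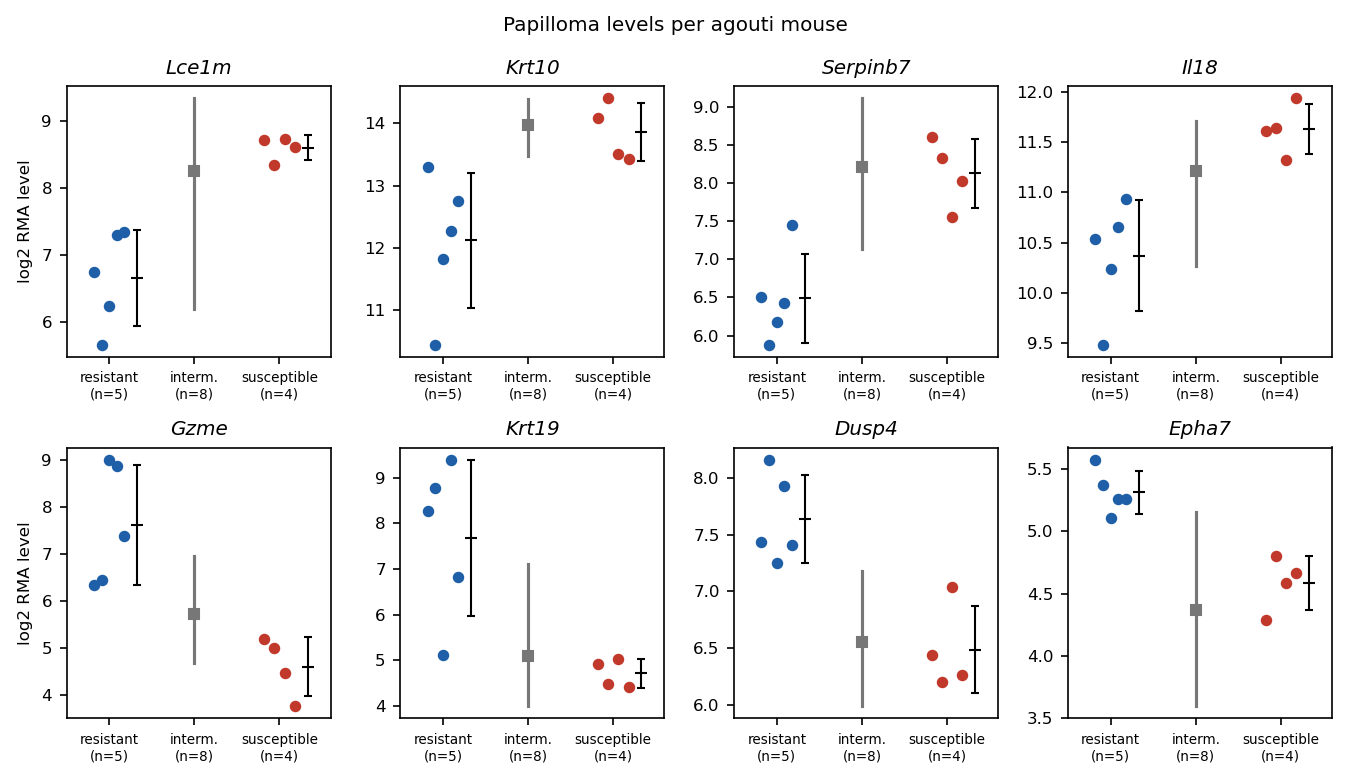
Log2 RMA levels of 8 genes in papillomas of resistant (blue), intermediate (grey) and susceptible (red) agouti mice. Points are single mice with the mean and SD beside them, and the grey line and square are the range and median of the 8 intermediate mice. The classes do not overlap in any of the 8 panels, and Krt19 of resistant mouse 34 lies next to the susceptible mice.

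The 2 papillomas of resistant mouse 32 were unlike each other in the genes above. Krt10 measured 7.14 in its papilloma 1 and 13.77 in its papilloma 2, and Krt19 measured 12.85 and 4.69. For Gzme the values were 8.35 and 4.54, and for Il18 7.69 and 11.29. Papilloma 1, the one with the low Actb ratio, thus held little Krt10 and the most Krt19 of the 16 arrays, while papilloma 2 lay among the susceptible mice for Krt10, Krt19 and Gzme. The median absolute gap over all tested probesets was 0.36 between these papillomas and 0.16 to 0.26 in the other 6 mice with a pair. With papilloma 2 alone standing for mouse 32, 15 of the 26 named genes that lay apart still did so, among them Lce1m (1.69 ± 0.23), Serpinb7 (1.36 ± 0.31), Agpat5 and Dusp4. Krt10 (1.07 ± 0.39), Krt19 (-2.14 ± 0.87) and Gzme (-2.62 ± 0.84) then overlapped. Resistant mouse 37, the other with unequal Actb ratios, also differed between papillomas, with 6.14 and 8.54 for Lce1m, 11.46 and 14.06 for Krt10, 6.26 and 8.63 for Serpinb7 and 10.13 and 11.73 for Il18. Its papilloma 2 was at the level of the susceptible mice in these 4 genes. With papilloma 2 alone for mouse 32, 168 probesets lay apart in place of 241, and 479 in place of 878 had an unadjusted p under 0.05.

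The cornified envelope list had the highest median difference of all lists. Of its 35 tested members 34 were higher in susceptible mice (50.4% of all tested probesets), with a median difference of 1.04 against 0.0016 over all tested probesets, and 12 had an unadjusted p under 0.05 in this direction (2.28% of all probesets). None passed the adjusted test, for this list or for any other list. Hornerin (Hrnr), a filaggrin relative, measured 11.64, 12.24, 10.73 and 12.48 in the susceptible and 11.06, 7.12, 11.00, 10.00 and 10.23 in the resistant mice, a difference of 1.89 ± 0.75. Resistant mice 7 and 34 overlapped the susceptible mice there, and mouse 32 stood far below. Casp14, the protease that processes filaggrin, differed by 1.73 ± 0.63, loricrin (Lor), the main envelope protein, by 1.33 ± 0.75, and Klk5, a kallikrein protease of desquamation, by 1.40 ± 0.41 with no overlap. The exception was Tchh, trichohyalin of the inner root sheath, at -1.69 ± 0.97. The transglutaminase Tgm1, which crosslinks the envelope, differed by 0.0054 ± 0.30. The mean level of the list was 12.13, 12.16, 10.91 and 11.90 in mice 6, 12, 29 and 36 and 11.48, 9.65, 11.34, 10.55 and 11.34 in mice 7, 32, 34, 35 and 37, so susceptible mouse 29 lay within the resistant range. The median difference was 0.61 without mouse 32, 0.58 with papilloma 2 standing for that mouse and 0.41 without mice 32 and 35. The 12 genes at an unadjusted p under 0.05 became 3 without mouse 6 or without mouse 12, 4 without mouse 36, 5 without mouse 35, 6 without mouse 32 and 21 without mouse 29, and 1 when single arrays were fitted with mouse as a random block.

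Other epidermal lists had smaller medians. Of 21 suprabasal differentiation genes 16 were higher in susceptible mice (median 0.20), 4 of them at an unadjusted p under 0.05 (2.28% of all probesets). Without mice 12 and 35, each with an array whose sex-linked transcripts go against the label, 10 of 21 were higher and the median was -0.036, and with mouse as a random block 0 were under the threshold. Krt1 differed by 1.99 ± 0.96, Krt77 by 1.50 ± 0.55 and the desmosomal cadherin Dsc1 by 1.05 ± 0.51. Of 9 Sprr genes 8 were higher, with a median of 0.48 and 0 under that threshold. Of 16 basal genes 15 were higher in resistant mice (median -0.51), 4 of them at an unadjusted p under 0.05 (1.79% of all probesets), among them the laminin receptor subunits Itga3 at -0.77 ± 0.32 and Itga6 at -0.60 ± 0.24 and the laminin chain Lamb3 at -0.66 ± 0.26. Without mice 12 and 35 the basal median was -0.40 with 0 under the threshold, and 0 were also under it without mouse 12, 34, 35 or 36 alone. Krt5 itself differed by -0.28 ± 0.23 and Krt14 by -0.080 ± 0.16. Lists of proliferation genes had medians nearer 0. For 24 mitosis genes the median was -0.16 and for 21 DNA replication genes -0.093, with 0 under the threshold in both lists, and the lowest mitosis level was that of susceptible mouse 36.

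Keratins that mark tumor progression were all lower in susceptible mice. The 6 members had a median of -1.78, and 3 had an unadjusted p under 0.05 (1.79% of all probesets in this direction). With papilloma 2 alone for mouse 32 the median was -1.06 and 1 was under the threshold. With mouse as a random block 1 was under it too. Krt8 measured 5.84, 4.99, 8.66 and 6.66 in the susceptible and 8.10, 8.04, 6.93, 11.28 and 8.78 in the resistant mice, a difference of -2.09 ± 0.91, and its partner Krt18 differed by -1.67 ± 0.54. Susceptible mouse 29 reached into the resistant range for both, and resistant mouse 35 was the highest. Krt7 differed by -1.89 ± 1.18, and the mucosal keratins Krt4 and Krt13 by -0.69 ± 0.68 and -0.42 ± 0.41. Among 23 genes of invasion and mesenchymal switch 22 were higher in resistant mice (median -0.49), 3 under the threshold. Of all tested probesets 50.4% were higher in susceptible mice. With papilloma 2 alone for mouse 32 the invasion median was -0.39 and 1 gene was under the threshold. Plau, the urokinase, differed by -1.89 ± 0.79, Inhba, the activin chain, by -0.86 ± 0.29 and the matrix protein tenascin-C (Tnc) by -1.02 ± 0.47. Without mice 12 and 35 the median of the keratins was -1.08 and that of the invasion genes -0.28, with 9 of 23 then higher in susceptible mice.

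Hair follicle genes were also higher in the resistant than in the susceptible agouti mice, with the highest levels of these 9 in mice 7 and 35. Of 9 inner root sheath genes 8 were higher in resistant mice (median -1.26, 4 under the threshold), of 12 hair shaft keratins 11 (median -0.89, 4 under it) and of 27 keratin-associated protein genes 26 (median -1.36, 1 under it). Over all tested probesets 1.79% were under it in this direction, and 50.4% were higher in susceptible mice. Krt28, a keratin of the inner root sheath, measured 5.55, 4.26, 4.33, 7.03 and 4.89 in the resistant and 3.66, 4.17, 3.51 and 3.51 in the susceptible mice and lay apart. Krt25, another, measured 9.57, 4.85, 7.15, 10.85 and 9.09 against 4.97, 7.93, 5.01 and 5.87, and here the groups overlapped. The hair keratin Krt33a measured 7.81, 4.32, 6.01, 9.57 and 6.38 in the resistant and 4.10, 5.75, 3.80 and 3.75 in the susceptible mice. Resistant mice 7 and 35 were the highest in all of these genes, and mouse 32 was at the level of the susceptible mice in Krt25 and Krt33a. The mean level of the 27 keratin-associated protein genes was 6.81, 4.09, 4.97, 7.73 and 5.17 in mice 7, 32, 34, 35 and 37 and 4.20, 5.21, 4.12 and 4.48 in mice 6, 12, 29 and 36. The 1 keratin-associated protein gene under the threshold became 20 without mouse 32 (median -1.82) and 25 without mice 32, 34 and 37. That count was 0 without mouse 6, 7, 29, 35 or 36 and 0 with mouse as a random block. The 4 inner root sheath genes became 6 without mouse 12 or 32, 1 without mouse 6, 7, 35, 36 or 37, and 0 with mouse as a random block. The 4 hair shaft keratins became 8 without mouse 32 or 34 and 2 with mouse as a random block. Without mouse 35 the median differences of the 3 lists were -0.93, -0.56 and -0.80. The level of a cell type's genes in a bulk papilloma cannot tell fewer cells from less RNA per cell.

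**Figure D3:**
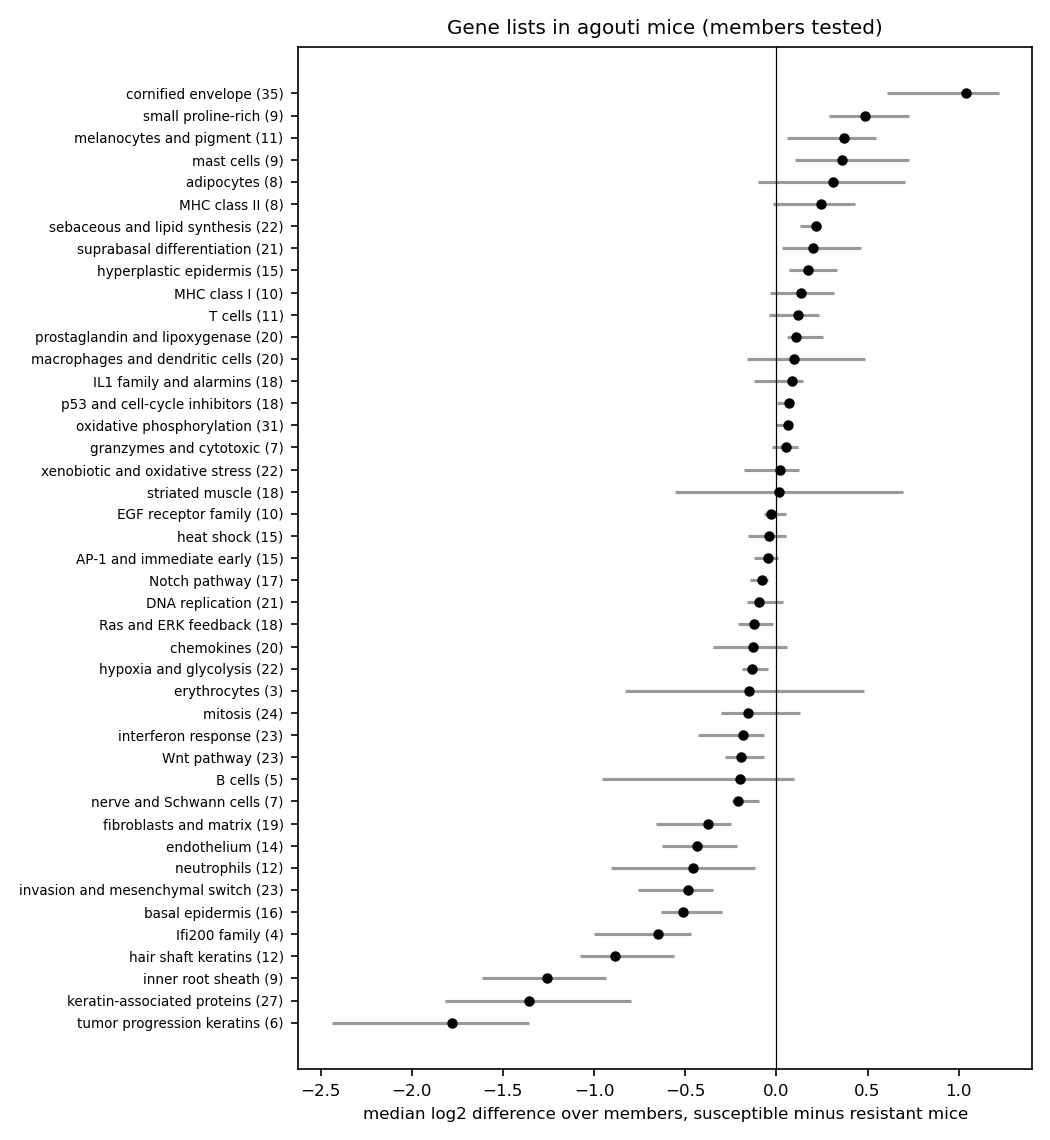
Median log2 difference over the tested members of each gene list, susceptible minus resistant agouti mice (points), with the range of that median when each of the 9 mice is left out (lines) and the number of members in parentheses. The cornified envelope lies highest at 1.04 and the progression keratins lowest at -1.78.

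**Figure D4:**
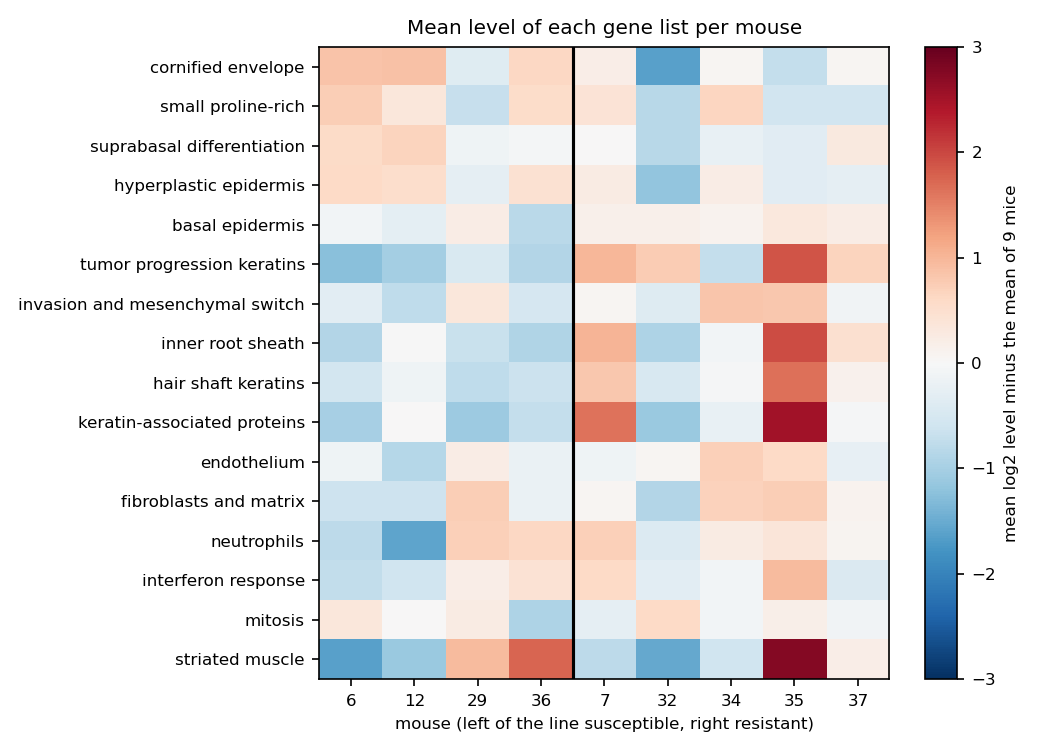
Mean log2 level of 16 gene lists in each mouse, minus the mean of the 9 mice (red higher, blue lower). The cornified envelope is lowest in resistant mouse 32, and the hair lists and striated muscle are highest in resistant mouse 35.

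Summed levels of markers of other cells overlapped between the classes. For 14 endothelial genes all were higher in resistant mice (median -0.44, 3 under the threshold), with Cdh5, the endothelial cadherin, at -0.89 ± 0.38. The shares of all tested probesets were 1.79% under the threshold in this direction and 50.4% higher in susceptible mice. Without mice 12 and 35 the endothelium median was -0.18, with 5 of 14 higher in susceptible mice and 0 under the threshold, and 0 were also under it without mouse 12 or without mouse 34. Their summed level on the linear scale was 1800 to 3800 in susceptible and 2630 to 5250 in resistant mice. Of 19 fibroblast and matrix genes 17 were higher in resistant mice (median -0.38, 0 under the threshold), with Col1a1 at -0.75 ± 0.42 and summed levels of 40500 to 96600 and 36100 to 102000, and without mice 12 and 35 the median was -0.16 with 8 of 19 higher in susceptible mice. Neutrophil genes had a median of -0.46 (9 of 12 higher in resistant mice, 0 under the threshold, summed levels 2330 to 11300 and 3300 to 20200), and the value was -0.000328 without mice 12 and 35. Striated muscle genes summed to 595 to 11000 and 635 to 19000, with the highest mean level in resistant mouse 35 and then in susceptible mouse 36. T cell genes (1220 to 2170 and 1100 to 1840), macrophage and dendritic cell genes (6810 to 25500 and 7700 to 26600), mast cell genes (1070 to 2970 and 783 to 3370) and melanocyte genes (1390 to 2960 and 1180 to 2700) overlapped, with 0 members under the threshold. So did B cell, nerve, adipocyte and erythrocyte genes. The part of these cells in the differences above was not tested. Gzmb, Prf1 and Nkg7, genes of cytotoxic lymphocytes, were low in all 9 mice, at 5.71 or less, and differed by 0.45 ± 0.24, 0.021 ± 0.13 and 0.16 ± 0.20.

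Among cytokines and mediators, Il18, an IL1 family cytokine of keratinocytes, measured 11.61, 11.64, 11.32 and 11.93 in the susceptible and 10.54, 9.49, 10.24, 10.65 and 10.93 in the resistant mice. The groups lay apart, by 1.26 ± 0.27 (2.39-fold, exact permutation p = 0.0159). The IL36 cytokines Il1f6, Il1f8 and Il1f9 differed by 1.68 ± 0.78, 1.26 ± 0.54 and 1.18 ± 0.50 with overlap, and Il1b, which neutrophils and macrophages also make, by -1.02 ± 0.55. Of the 18 genes in the list of IL1 family and alarmins 9 were higher in each class (median 0.087). Ptgs2, the inducible cyclooxygenase, lay apart in the other direction, with 8.72, 8.91, 9.77, 9.44 and 8.76 in resistant and 8.46, 5.90, 7.75 and 8.49 in susceptible mice and a difference of -1.47 ± 0.50. Hpgd, which degrades prostaglandins, was higher in susceptible mice by 1.32 ± 0.48 with overlap. Of 20 prostaglandin and lipoxygenase genes 14 were higher in susceptible mice (median 0.11). The chemokine Cxcl3 differed by -0.99 ± 0.39, and 13 of 20 chemokine genes were higher in resistant mice (median -0.13). Of 4 interferon-inducible Ifi200 genes all were higher in resistant mice (median -0.65), with Mndal at -2.06 ± 0.88, where susceptible mice 6 and 12 were the low ones (6.19 and 5.48) and mice 29 and 36 (9.22 and 10.16) lay within the resistant range. Among 18 genes of Ras and ERK feedback, Spred2, an inhibitor of this pathway, differed by -0.66 ± 0.21 in the direction of Dusp4, and the list's median was -0.12. The EGF receptor ligand Btc was higher in susceptible mice by 0.52 ± 0.17, while 6 of the 10 EGF receptor family genes were higher in resistant mice (median -0.027). Lists of heat shock, oxidative phosphorylation, AP-1, p53, MHC, hypoxia, Notch, Wnt and lipid genes had medians between -0.19 and 0.25.

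The study listed 30 probesets for a genetic linkage seen only in tumors together with a difference between susceptible and resistant mice, these 9 among them, so the agouti values below are not independent of that choice. Of the 30, 24 were higher in susceptible and 6 in resistant agouti mice, 6 had an unadjusted p under 0.05 (4.07% of all probesets), 3 lay apart (1.12%) and 0 passed the adjusted test (25 were among the tested probesets, the others had no single gene name). Beside Il18, Gzme and the probeset shared by Gzme and Gzmd, the genes under the threshold were Tslp, an epithelial cytokine, at 1.21 ± 0.42, Acer2, a ceramidase, at 0.50 ± 0.20 and the peptidase Nrd1 at 0.46 ± 0.20. Tslp was highest in susceptible mouse 6 (8.00) and at the resistant level in susceptible mouse 12 (5.56). Map2k4, a JNK pathway kinase, differed by 0.12 ± 0.11, and Ddx6 by -0.54 ± 0.52. When the 18 susceptible and resistant mice of both coats were compared without a coat term, 11 probesets passed the adjusted test (0.051%) and 9.53% had an unadjusted p under 0.05. In those mice coat and class go together, with 8 white mice among the susceptible and 1 among the resistant, and with coat as a covariate 1 probeset passed, that of Il18 (limma adjusted p 0.047). These 18 include the 9 agouti mice, and over the agouti mice alone all 11 had an unadjusted p under 0.05 and 9 lay without overlap. Beside those already named they were Rora, a nuclear receptor, at 1.09 ± 0.24, Rnf227 at 1.68 ± 0.38, Nr2f2, a nuclear receptor, at -0.62 ± 0.17, Cnot6l, a deadenylase, at 0.57 ± 0.17, Spryd7 at 0.47 ± 0.12 and the mitochondrial protease subunit Clpx at 0.34 ± 0.12.

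In the mean levels of the hair follicle lists the 8 intermediate agouti mice lay nearer to the resistant mice. They lay nearer to the susceptible mice in most of the named genes. Gzme lay at 4.66 to 6.95 (median 5.73) in them, Krt19 at 4.00 to 7.10 (median 5.10), Krt10 at 13.47 to 14.39 (median 13.98) and Il18 at 10.27 to 11.70 (median 11.21). Their mean was between the class means in 24 of the 28 named genes and nearer to the susceptible mean in 27, 1110064A23Rik being the exception. These 3 comparisons share mice, and the genes were chosen on both extremes. At an unadjusted p under 0.05 intermediate and resistant mice differed in 2777 probesets (12.9%), and susceptible and intermediate mice in 1003 (4.65%), with 0 passing the adjusted test in each (limma, smallest adjusted p 0.093 and 0.89). With sex as a covariate 1 probeset passed between intermediate and resistant mice, Blmh, bleomycin hydrolase, which degrades filaggrin peptides, higher in intermediate mice by 1.25 ± 0.17. The difference between males and females in the class effect had 0 adjusted calls (smallest adjusted p 0.56) and 1469 probesets (6.81%) at an unadjusted p under 0.05. None of the 28 genes named for the class difference passed an unadjusted p of 0.05 for this term, while the class-linked aldo-keto reductase gene Akr1b10 did.

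A pair of cages held both classes. Mice 6 and 7 were males of 1 cage and mice 36 and 32 females of another, and all shared origin F1BSF4 and start cohort 2. These mice were among those that chose the named genes, so the direction within a cage is fixed for each gene without overlap. Lce1m was higher in the susceptible mouse by 1.97 in the male and 2.95 in the female cage, and Gzme differed by -1.16 and -2.68. The cornified envelope list had medians of 0.78 and 2.38, and the progression keratins of -1.96 and -1.27. The keratin-associated proteins were not alike, with -2.54 in the male and 0.22 in the female cage, and neutrophil genes had -1.28 and 1.48. With 1 mouse of each class per cage there is no replicate check of these values.

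Limiting the comparison to agouti mice was meant to hold the region of the coat gene fixed. To check this, probesets on chromosome 7 were compared by coat in the 19 intermediate mice, which are in neither class. Of all tested probesets 3 passed the adjusted test (0.0139%, against 7.13% at an unadjusted p under 0.05), all on chromosome 7 on the higher-numbered side of Tyr in RefSeq order. They were Rab6a, a GTPase of the Golgi (-0.88 ± 0.11, agouti minus white), Clns1a, a splicing cofactor (-0.51 ± 0.068), and Neu3, a ganglioside sialidase (0.80 ± 0.12). Rab6a lay at 9.12 to 9.57 in the 11 white and 7.91 to 8.94 in the 8 agouti intermediate mice, with no overlap. In the agouti classes it measured 8.56, 8.33, 8.66 and 8.56 in susceptible mice 6, 12, 29 and 36 and 8.40, 9.60, 9.37, 7.74 and 9.86 in resistant mice 7, 32, 34, 35 and 37. Resistant mice 32, 34 and 37 thus carried a level of white mice although their coat label is agouti, and the other 6 lay below every white intermediate mouse. Neu3 measured 6.68, 5.98, 5.46, 6.64 and 5.67 in the resistant and 6.42, 7.28, 6.63 and 5.48 in the susceptible mice, against 5.39 to 6.39 in white and 6.36 to 7.22 in agouti intermediate mice, which put the same 3 resistant mice and susceptible mouse 36 on the white side. Clns1a measured 11.16, 11.68, 11.83, 10.95 and 11.96 and 11.72, 11.12, 11.59 and 11.69 and was above all agouti intermediate mice in those 3 resistant mice and in susceptible mice 6, 29 and 36.

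The coat label did not hold the array signal of this stretch of chromosome 7 constant within the agouti mice. The paper cautions that strain differences in the sequence under a probe can mimic an effect of a nearby locus on expression. Whether they do so in these probesets was not tested. Genotypes were not analysed here, and a wrong coat label, a crossover beside Tyr and a mixed-up sample cannot be told apart for mice 32, 34 and 37. The 5 other chromosome 7 probesets of smallest p by coat, for Fam168a, Nars2, Trim21, Sephs2 and Trim12c, overlapped between coats and did not pass the adjusted test. Of all 8 probesets, 6, 2, 0 and 5 were nearer to the white than the agouti intermediate mean in susceptible mice 6, 12, 29 and 36. In resistant mice 7, 32, 34, 35 and 37 the counts were 2, 5, 6, 0 and 7. The class difference of Rab6a was -0.47 ± 0.40, that of Clns1a 0.014 ± 0.24 and that of Neu3 0.36 ± 0.38, each with overlap. Chromosome 7 held 84 of 1502 probesets at an unadjusted p under 0.05 between the classes (5.59%), and the rest of the genome 794 of 20059 (3.96%). Chromosomes 14, 8 and 11 had higher shares, 7.22%, 6.16% and 6.1%, so chromosome 7 did not stand out. Without mice 32, 34 and 37 the cornified envelope median was 0.78 and that of the progression keratins -2.52, and 0 probesets passed the adjusted test.

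**Figure D5:**
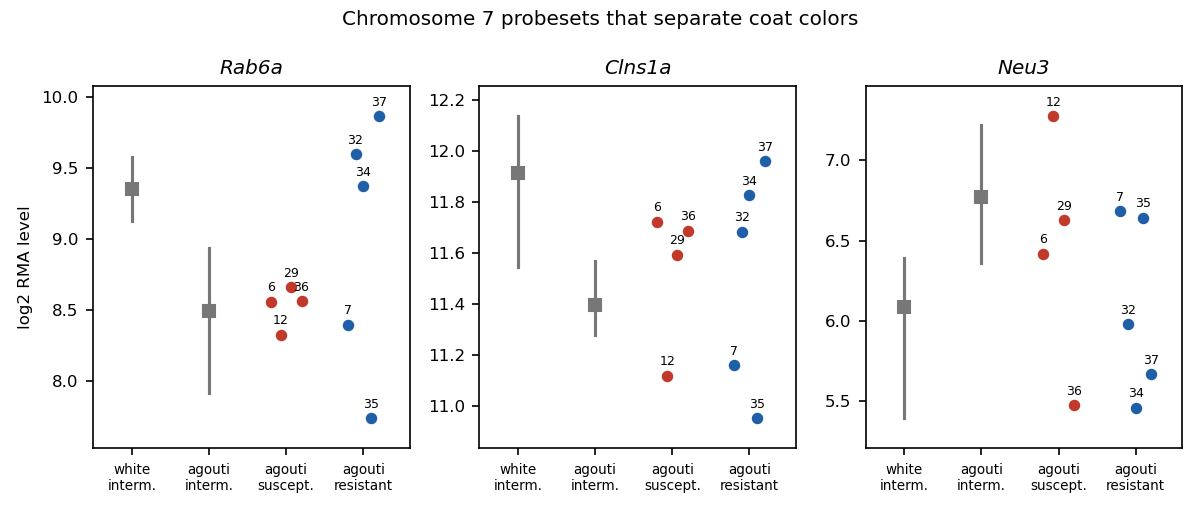
Log2 RMA levels of the 3 chromosome 7 probesets that passed the adjusted test between coats in intermediate mice. Grey lines and squares are the range and median of the 11 white and 8 agouti intermediate mice, and points are single susceptible (red) and resistant (blue) agouti mice with their numbers. Resistant mice 32, 34 and 37 lie at the white level of Rab6a.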

How the data were processed

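Papilloma RNA was hybridized to Affymetrix mouse expression arrays. The authors deposited log2 values, per the labels normalized by RMA, which adjusts background and makes the arrays share 1 distribution, so differences are relative. The RMA version is not given in the sources used here. Gene names came from the array annotation, and 21561 probesets with 1 symbol and a level above the array median in at least 11 arrays were tested.

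Values were averaged per mouse and susceptible and resistant agouti mice compared with limma 3.58.1 (lmFit and eBayes, R 4.3.3), with Benjamini-Hochberg adjustment over all tested probesets. Single genes also had an exact two-sided permutation test that enumerated every split of the 9 mice. Python 3.11.15, pandas 2.3.3, NumPy 2.4.6, matplotlib 3.10.9 and statmod 1.5.0 were used, and the fit was tested on simulated data. Named were up to 8 probesets of smallest p in each direction, 6 more of largest difference with p under 0.01 and no overlap, the study's class-linked probesets, up to 4 members of largest difference per list and the 8 chromosome 7 probesets of smallest p by coat (fit with sex as a covariate). Some further list members were named for their role after their values were seen. The mice, gene lists and tests were chosen with earlier results of these data known. The values of 1 named gene are not reported here. Each list was described by 1 probeset per gene, by counts and by its median.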

Additional observations from a re-analysis of the deposited data

Results flagged for a closer look

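Among 104 groups of 4 or 5 mice examined for the named genes, 2 held a mouse far from the others, and chance gives about 1 in 20 (5.2 groups). H60c of resistant mouse 32 was 5.97, below the 6.79 to 7.00 of the other resistant mice, with a gap of 0.801 of the group's range. Serpina12 of resistant mouse 37 was 8.10, above the 6.45 to 6.90 of the others, with a gap of 0.731 of the range.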

How the results depend on the processing

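Beside the reported one, 33 settings were run, 4 of them chosen after seeing the data (without mice 32 and 37, without mice 32 and 35, without mice 32, 34 and 37, and mouse 32 by its papilloma 2 alone). Of 921 values of the named genes 0 changed direction and 1 passed the adjusted threshold. For the 26 named genes without overlap, leaving out mice cannot reverse the direction. Some settings, such as those without the filter, leave the difference itself unchanged. The absence of reversals therefore adds no support. The count of adjusted calls, 0, became 1 over 18 mice of both coats with coat as a covariate (Il18, 1.31, limma adjusted p 0.047), with classes set by the 24-week papilloma number (Krt19, -4.39, adjusted p 0.0041) and without mice 32 and 37 (Trip12, 1.97, adjusted p 0.035, against 0.71 over all 9 mice). The 24-week classes held 5 susceptible mice, among them mouse 24, intermediate at 20 weeks, and only 2 resistant mice, 32 and 35. Krt19 measured 8.77 in mouse 32, the mean of 12.85 and 4.69, and 9.39 in the 1 array of mouse 35. That call thus rests on 2 resistant values. The count of adjusted calls stayed at 0 when 1 mouse was left out. For intermediate against resistant mice it became 1 with sex as a covariate.

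The 878 unadjusted calls became 1364 with no filter, 1664 over all non-control probesets, 1664 with 6 groups over all 37 mice, 1646 over the 18 mice, 512 in the 2 cages with cage as a block, 573 in mice of origin F1BSF4, 1905 in a regression on log2 papilloma number and 479 with papilloma 2 alone for mouse 32. With 1 mouse left out they ranged from 629 to 1665, the highest without mouse 29. Centring each array on its median moved the split from 491 and 387 to 541 and 326. The cause was not tested.

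The papilloma number within a mouse does not pair mice of the classes, and as a replicate block it gave 854 unadjusted and 0 adjusted calls.

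Of 1711 values of named and class-linked genes 15 changed direction, all of class-linked genes with small differences. Ddx6 was 0.14 without mice 32, 34 and 37. Ssr1 was -0.055 by the first papilloma, -0.017 without mouse 32, -0.010 without mice 32 and 37 and -0.0085 without mice 32, 34 and 37. Ubash3b was -0.11 by 24-week classes, -0.016 in the regression, -0.078, -0.047, -0.040 and -0.012 without mouse 6, 7, 29 or 37, and -0.024 without mice 32 and 37; with 1 mouse left out it ranged from -0.078 to 0.16. Dhdds was -0.012 in the cohort and in the cages that held both classes, and Hyls1 -0.14 by 24-week classes.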
